A study of Mus musculus with 8 samples.

Results

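Markers of blood vessel endothelium, pericytes and adipocytes were followed through bulk RNA-seq libraries of epithelial cells sorted from mouse mammary gland. The set holds 35 of the 49671 genes of the deposited table: 18 endothelial, 8 pericyte and 9 adipocyte markers, chosen by gene symbol, each found in 1 row. The 8 libraries, all from females, form 4 groups of 2. CD1 mice, a wild-type outbred stock, gave a luminal and a basal group. Mice labelled K8rtTA/TetOCre/Rosa26-DNp63-IRES-GFP, here called DNp63, gave the other luminal and basal groups. In those mice the keratin 8 promoter, active in luminal cells, drives the doxycycline-dependent activator rtTA, which switches on Cre through TetOCre, and Cre then releases DNp63 (the N-terminally truncated form of p63) together with GFP from the Rosa26 locus. Neither the age of the mice nor the doxycycline schedule of the DNp63 mice could be taken from the labels. Every gate took CD45-, CD31-, CD140a- and CD24+ cells, with low CD29 for luminal and high CD29 for basal cells, and the DNp63 gates were also GFP+. Each luminal library was made from 40000 sorted cells and each basal library from 5000, so the gate and the number of cells cannot be told apart. Stock, transgenes, doxycycline and the GFP gate likewise go together in any DNp63 against CD1 difference. The labels do not say whether the 2 libraries of a group are from separate animals, so p-values measure the spread between these libraries, which may be technical.

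Endothelial cells line vessels; they are held together by the adhesion molecules VE-cadherin and CD31 and read VEGF and angiopoietin through receptor tyrosine kinases. Pericytes wrap capillaries, depend on PDGF-B from endothelium, and carry a characteristic potassium channel pair. In the mammary gland the epithelial ducts run through a fat pad, where adipocytes store lipid in droplets coated with perilipins, and where capillary endothelium also takes up and carries fatty acids. CD45 marks leukocytes, CD31 endothelium and CD140a (encoded by Pdgfra) fibroblasts, and the sort was set to leave these out. No antibody of the sort is directed at pericytes or adipocytes.

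Promoters could be read for 20 of the 35 genes from RefSeq (GRCm38.p6). The following 4 are shown because their genes stand for the angiopoietin and VEGF receptors, the pericyte marker and the fatty acid transporter described below. Each is the 250 bases before the annotated start, 5′ to 3′ on the gene's strand, with CAGGAA or its reverse complement TTCCTG, letters that contain the ETS factor core, in capitals. The windows are chr4:94739039-94739288 (plus strand) for Tek, chr5:75978456-75978705 (minus strand) for Kdr, chr1:169655251-169655500 (plus strand) for Rgs5 and chr5:17835897-17836146 (minus strand) for Cd36. The RefSeq start used for Cd36 lies inside the gene as GENCODE places it, which begins farther upstream at chr5:17888801.
Tek: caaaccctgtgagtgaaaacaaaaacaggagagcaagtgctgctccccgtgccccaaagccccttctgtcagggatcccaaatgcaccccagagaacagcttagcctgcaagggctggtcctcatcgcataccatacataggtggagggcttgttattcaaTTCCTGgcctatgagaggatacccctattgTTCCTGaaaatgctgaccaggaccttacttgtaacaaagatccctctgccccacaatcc
Kdr: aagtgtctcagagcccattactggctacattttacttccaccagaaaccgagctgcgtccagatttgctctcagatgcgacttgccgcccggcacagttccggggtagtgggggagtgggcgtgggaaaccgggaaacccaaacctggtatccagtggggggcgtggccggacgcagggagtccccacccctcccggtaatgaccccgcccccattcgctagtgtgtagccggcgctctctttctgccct
Rgs5: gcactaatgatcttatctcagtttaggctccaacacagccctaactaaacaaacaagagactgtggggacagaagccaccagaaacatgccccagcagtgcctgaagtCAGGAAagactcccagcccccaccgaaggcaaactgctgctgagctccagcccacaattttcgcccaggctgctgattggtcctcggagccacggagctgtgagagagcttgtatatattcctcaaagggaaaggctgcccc
Cd36: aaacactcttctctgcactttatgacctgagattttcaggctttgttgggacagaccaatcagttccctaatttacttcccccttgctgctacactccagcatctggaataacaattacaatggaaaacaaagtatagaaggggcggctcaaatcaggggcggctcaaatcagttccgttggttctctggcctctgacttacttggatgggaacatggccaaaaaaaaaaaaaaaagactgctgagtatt
Searched on both strands in windows of 300 bases (250 before to 50 after the start), CAGGAA was present for 6 of 9 endothelial, 3 of 5 pericyte and 0 of 6 adipocyte genes. That is 45% of the 20 genes, against 33.4% of all 27025 genes with a window. The consensus direct repeat read by PPAR-RXR was present for 0 of the 20 genes and for 0.0481% of all genes. The 2 motifs do not overlap in letters, and a match is a description of the sequence only.

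All values below are reads per 20000000 of the library. Recovered depth was 4136998 to 7206729 reads, so 1 read is worth 2.78 to 4.83 units. Replicates of no group were identical. Differences are on the scale log2(value + 8) after scaling, which understates those of low genes, and a call is a limma adjusted p under 0.05 over 16900 genes tested. All 35 genes passed the filter on low values, 10 of them only through the basal libraries, so that these had to differ: Sox17, Sox18 and Erg of the endothelial, Kcnj8, Higd1b and Ndufa4l2 of the pericyte, and Adipoq, Car3, Plin1 and Cidec of the adipocyte genes. The other 25 passed on the luminal libraries alone (15 endothelial, 5 pericyte and 5 adipocyte genes).

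Nearly all markers were higher in the basal gate than in the luminal gate of CD1 mice. Of the 35, 33 were called higher and 0 lower, where 24.2% of all genes tested were called higher, 20.1% lower and 44.3% either way. The uncalled genes were Vwf and Ecscr. Among the 25 that passed on the luminal libraries alone, 23 were called higher, with a median log2 difference of 4.35 over the 25. With the 10 genes that had to differ included, the median log2 difference was 4.75 for the endothelial, 3.88 for the pericyte and 4.39 for the adipocyte genes. It was -0.01 for all genes tested. The adipocyte median is the value of Cidec, 1 of those 10. In DNp63 mice 33 were called higher and 0 lower, where 24.9% of all genes were called higher, 24.4% lower and 49.2% either way, and the uncalled genes were Vwf and Plin4. Medians there were 4.73, 3.98 and 3.25. Over the 25 genes that passed on the luminal libraries alone, the DNp63 median was 4.71, and 23 were called higher. In bulk libraries, fewer cells of a type, less RNA per cell and lower expression by the sorted epithelial cells themselves cannot be told apart.

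**Figure D1:**
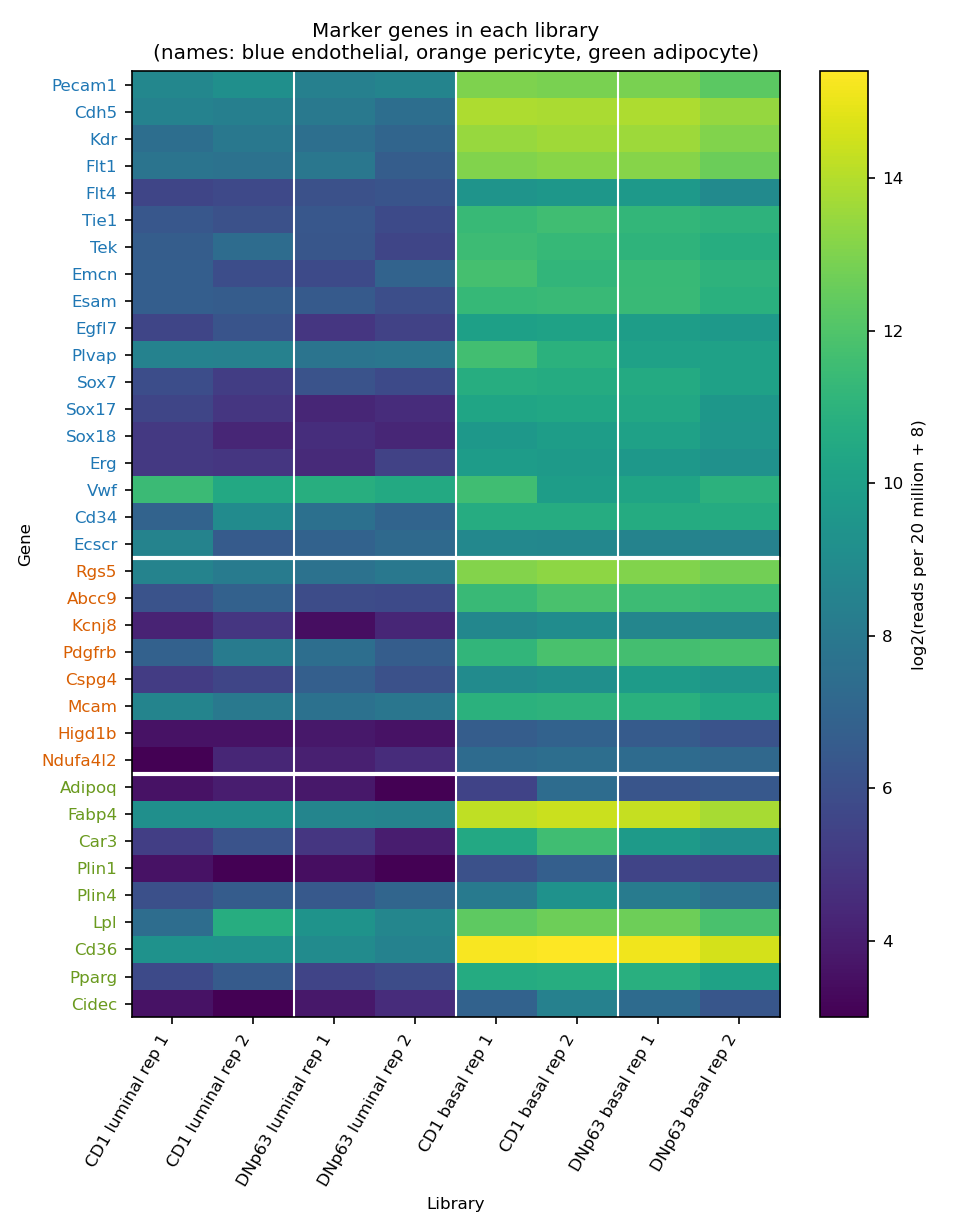
Value of each of the 35 genes (rows) in each of the 8 libraries (columns), as log2(reads per 20000000 + 8); white lines separate cell types and groups. The 4 basal columns are brighter than the 4 luminal columns for nearly every row, while Vwf is bright in all 8.

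Summed over the 18 endothelial genes, the luminal libraries held 5407 and 4256 (CD1) and 3695 and 3181 (DNp63), and the basal libraries 69598 and 66695 (CD1) and 64622 and 47956 (DNp63). Luminal and basal groups were apart. The pericyte sum was 960 and 990 in luminal and 16879 and 20845 in basal libraries of CD1 mice, and 725 and 699 in luminal and 18014 and 15770 in basal libraries of DNp63 mice. The adipocyte sum was 1511 and 3115 in luminal against 66517 and 77558 in basal libraries of CD1 mice, and 1697 and 1321 against 65655 and 44349 in DNp63 mice. As a share of all reads, endothelial genes made up 0.333% to 0.348% of the CD1 basal libraries and 0.0213% to 0.027% of the CD1 luminal ones. Without Vwf and Ecscr, a pair left out after their values were seen, the luminal share was 0.011% to 0.0136%, and the CD1 basal sum was 26.6 times the luminal one in place of 14.1 times.

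**Figure D2:**
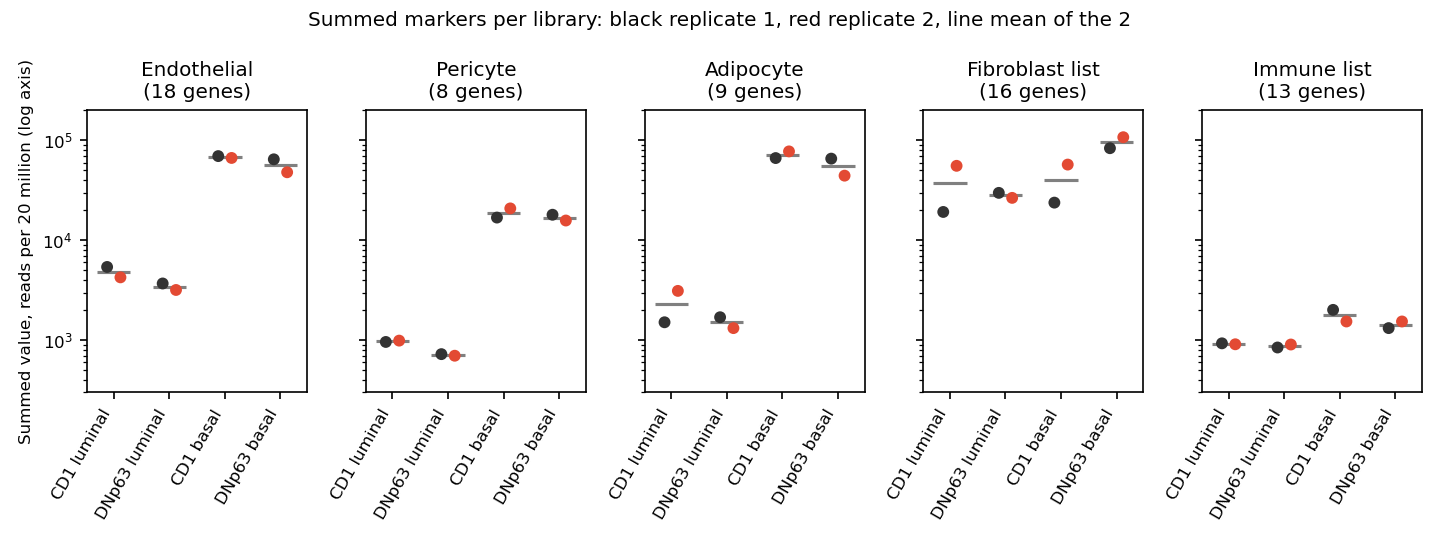
Summed value in reads per 20000000 (log axis) of the 3 marker sets and of the fibroblast and immune lists; points are libraries, lines the mean of the 2. The endothelial, pericyte and adipocyte sums separate by gate in both lines. So do the immune sums, with basal over luminal ratios of 1.93 in CD1 and 1.63 in DNp63 mice. The fibroblast sums overlap between the CD1 gates and separate between the DNp63 gates.

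Cdh5, which encodes VE-cadherin of endothelial junctions (chr8:104101625-104144511, plus strand, GRCm38), was at 348 and 323 in luminal and 15016 and 14684 in basal libraries of CD1 mice, and 247 and 173 in luminal and 15106 and 11042 in basal libraries of DNp63 mice. All 4 basal libraries lay far above all 4 luminal ones. The log2 difference was 5.42 ± 0.20 (standard error; adjusted p = 6.47e-07) in CD1 and 5.94 (adjusted p = 3.46e-07) in DNp63 mice. Pecam1, which encodes CD31 itself, the antigen used to sort endothelium out, was at 419 and 571, then 331 and 380, in the luminal groups. Its basal values were 8163 and 7669 in CD1 and 7637 and 4980 in DNp63 mice. The differences for Pecam1 were 3.98 (adjusted p = 3.82e-06) and 4.12 (adjusted p = 2.4e-06). Per kilobase of exon, the level of Cdh5 was 1.00 times that of Pecam1 in CD1 luminal and 2.78 times in CD1 basal libraries, and 0.875 and 3.07 times in the DNp63 groups. Esam, a further junctional adhesion molecule, was higher by 4.70 in CD1 and 4.91 in DNp63 mice.

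The VEGF receptors moved with the junction genes. Kdr, the main signalling receptor for VEGF-A (chr5:75932827-75978458, minus strand; promoter above), was at 171 and 245 in CD1 luminal and 11638 and 12688 in CD1 basal libraries. In DNp63 mice it was at 178 and 122 in luminal and 12122 and 8446 in basal libraries. On the scale used, its difference was the largest of the endothelial genes in both lines. It was 5.82 (adjusted p = 1.14e-06) in CD1 and 6.05 (adjusted p = 7.72e-07) in DNp63 mice. By the basal over luminal ratio of recovered reads, Sox17 exceeded Kdr in DNp63 mice (84.4 against 67.5), on 8 luminal reads. Flt1, the high-affinity VEGF receptor that limits signalling, was at 213 and 197 in luminal and 8589 and 9470 in basal libraries of CD1 mice, and 231 and 94 in luminal and 9134 and 6300 in basal libraries of DNp63 mice. Again no luminal library came near a basal one, and the differences were 5.39 and 5.63. Flt4, the receptor for VEGF-C, best known in lymphatic endothelium, was the lowest of the 3 receptors per kilobase of exon in every group and lay at 40 to 67 in the luminal and 479 to 810 in the basal libraries, with differences of 3.84 and 3.18. Of the angiopoietin receptor family, Tek, which encodes TIE2, differed by 4.35 and 4.96, and its partner Tie1 by 5.23 and 5.07.

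Endothelial transcription factors were also higher in the basal libraries, though all but Sox7 passed the filter only through those. Sox7, Sox17 and Sox18, the SOXF factors of vessel development, differed by 5.07, 5.07 and 5.08 in CD1 and by 4.39, 5.58 and 5.33 in DNp63 mice. Erg, an ETS factor of endothelial identity, differed by 4.81 and 4.51. These 4 genes were at 12 to 64 in the luminal and 605 to 1681 in the basal libraries. Of the surface and secreted genes, Emcn (endomucin, a sialomucin) differed by 5.15 and 4.84, and Egfl7 (a secreted vessel protein) by 4.17 and 4.62. Egfl7 shares 64 exon bases with Agpat2 on the other strand, and no label or header read here states a strand setting. It also shares 264 with Gm20532 on the same strand, which was at 0 in all libraries. Other marker genes overlap genes on the other strand too. Among them, Sox17 shares 804 exon bases with Gm37587, at 0 to 23, and Ndufa4l2 shares 32 with Shmt2, at 360 to 630. Cd34, a sialomucin that other progenitor cells also carry, differed by 2.72 and 3.40. CD1 luminal replicate 2 held 493 of it and replicate 1 held 114, and the CD1 difference was 1.70 without replicate 1.

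Vwf was the endothelial gene with the smallest gate difference in both lines. It encodes von Willebrand factor, the clotting protein stored in endothelial granules and platelets (chr6:125546774-125686679, plus strand). Its values were 2837 and 1442 in luminal and 3104 and 943 in basal libraries of CD1 mice, and 1735 and 1456 in luminal and 1223 and 2026 in basal libraries of DNp63 mice. All groups overlapped. The difference was -0.25 in CD1 mice (95% interval -1.41 to 0.91; adjusted p = 0.718) and 0.02 in DNp63 mice (-1.14 to 1.18; adjusted p = 0.983), and its sign turned in either line when single libraries were left out, and in DNp63 mice also with values as deposited. Per kilobase of exon, the level of Vwf in CD1 luminal libraries, 133, was above those of Pecam1 (79.5) and Cdh5 (79.8) and below that of Plvap (175). The order depends on the merged exon lengths of all transcripts, 16064 bases for Vwf and 1987 for Plvap. Ecscr, an endothelial sialoprotein, was at 362 and 86 in luminal and 440 and 424 in basal libraries of CD1 mice, and 112 and 141 in luminal and 363 and 344 in basal libraries of DNp63 mice. Its CD1 difference was 1.23 (adjusted p = 0.0857), and 2.22 (adjusted p = 0.000346) without CD1 luminal replicate 1. Its DNp63 difference was 1.46 (adjusted p = 0.0434), a call lost when any 1 of the 4 DNp63 or of the 2 CD1 basal libraries was left out (differences 1.36 to 1.61, adjusted p 0.0677 to 0.152) and with a filter of at least 1 (adjusted p = 0.0875). Ecscr shares 62 exon bases with a gene on the other strand that was at 0 to 22.

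The 8 pericyte genes were called higher in the basal gate in both lines, 5 of which (Rgs5, Abcc9, Pdgfrb, Cspg4 and Mcam) passed the filter on luminal libraries alone. Rgs5, a regulator of G protein signalling and a standard pericyte marker (chr1:169655501-169695813, plus strand), was at 369 and 275 in luminal and 8776 and 10073 in basal libraries of CD1 mice, and 195 and 243 in luminal and 8451 and 6933 in basal libraries of DNp63 mice. The groups of the 2 gates lay wide apart, with differences of 4.84 ± 0.19 (adjusted p = 8.28e-07) and 5.11 (adjusted p = 5.22e-07). Abcc9 and Kcnj8 encode the SUR2 and Kir6.1 subunits of the pericyte potassium channel. Abcc9 was at 64 and 108 in luminal against 2715 and 3661 in basal libraries of CD1 mice, and at 50 and 47 against 2850 and 2592 in DNp63 mice. On the scale used, that was the largest pericyte difference in both lines, at 5.10 and 5.62. By the ratio of recovered reads, Kcnj8 exceeded Abcc9 in DNp63 mice (62.4 against 56.0), on 4 luminal reads. Kcnj8, at 3 to 23 in luminal and 405 to 519 in basal libraries, differed by 4.29 and 4.82.

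Pdgfrb, the PDGF-B receptor that recruits pericytes and is also present on fibroblasts, was at 107 and 275 in luminal and 2308 and 3693 in basal libraries of CD1 mice, and 170 and 94 in luminal and 3301 and 3588 in basal libraries of DNp63 mice. The higher value within each CD1 group was in replicate 2, which also had the higher fibroblast sum, and the differences were 4.01 and 4.71. Mcam (CD146), an adhesion molecule shared by pericytes and endothelium, had the smallest pericyte difference in CD1 mice, 2.64, and 2.92 in DNp63 mice. Its values were 376 and 252 in luminal against 1910 and 2048 in basal libraries of CD1 mice, and 192 and 224 against 1868 and 1359 in DNp63 mice. Cspg4, the NG2 proteoglycan, differed by 3.66 and 3.26. Higd1b and Ndufa4l2, genes for mitochondrial proteins that are enriched in pericytes, rested on 2 and 3 reads over both CD1 luminal libraries against 48 and 76 in CD1 basal ones. Their read ratios were 28.3 (95% interval 7.41 to 240.0) and 29.8 (9.83 to 147.8), where the intervals cover counting error only.

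The 9 adipocyte genes were called higher in the CD1 basal gate, and 8 of 9 in the DNp63 basal gate; 5 of them (Fabp4, Cd36, Lpl, Pparg and Plin4) passed the filter on luminal libraries alone. They fall into 4 that capillary endothelium or milk-making cells also use (Fabp4, Cd36, Lpl and Pparg) and 5 more typical of fat cells (Adipoq, Car3, Plin1, Plin4 and Cidec). Fabp4, the fatty acid binding protein of adipocytes and capillaries (chr3:10204088-10208576, minus strand), was at 561 and 575 in luminal and 18903 and 21865 in basal libraries of CD1 mice, and 397 and 372 in luminal and 20504 and 13967 in basal libraries of DNp63 mice. The gates were fully separated, by 5.13 ± 0.18 (adjusted p = 5.63e-07) and 5.46 (adjusted p = 3.46e-07). Cd36, a fatty acid transporter (chr5:17781690-17888801, minus strand), was at 635 and 604 in luminal against 39115 and 43235 in basal libraries of CD1 mice, and at 492 and 349 against 35475 and 24709 in DNp63 mice. On the scale used, it had the largest difference of all 35 genes in both lines, 6.02 and 6.16. By the basal over luminal ratio of recovered reads, Cidec exceeded Cd36 in CD1 mice (129.5 against 66.7), on 1 luminal read. Sox17 exceeded Cd36 in DNp63 mice (84.4 against 70.5), on 8 luminal reads. Per kilobase of exon Cd36 was also the highest of the 35 in CD1 basal libraries, at 11469, followed by Fabp4, Cdh5, Rgs5 and Kdr. That order depends on the exon lengths used, which merge the exons of all annotated transcripts. For Fabp4 the merged length was 4489 bases, its whole gene span.

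Pparg, the master transcription factor of fat cells, was at 47 and 86 in luminal and 1552 and 1713 in basal libraries of CD1 mice, and 39 and 51 in luminal and 1779 and 1122 in basal libraries of DNp63 mice, differing by 4.50 and 4.78. Lpl, the lipase that frees fatty acids from lipoproteins, was at 167 and 1690 in luminal against 5073 and 6400 in basal libraries of CD1 mice, and at 650 and 403 against 6508 and 3621 in DNp63 mice. CD1 luminal replicate 2 stood 10.1 times above replicate 1 for Lpl. Its differences were 3.37 (adjusted p = 0.011) and 3.25 (adjusted p = 0.0118). The CD1 difference was 1.74 without CD1 luminal replicate 1 and 5.02 without CD1 luminal replicate 2. The CD1 call was lost without CD1 basal replicate 2 (3.18, adjusted p = 0.0666), and the DNp63 call without DNp63 basal replicate 1 (2.84, adjusted p = 0.0829) or DNp63 luminal replicate 2 (2.91, adjusted p = 0.0695).

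The 5 genes more typical of fat cells summed to 101 and 160 in luminal and 1874 and 4345 in basal libraries of CD1 mice, and 119 and 146 in luminal and 1389 and 930 in basal libraries of DNp63 mice. The other 4 summed to 64643 and 73213 in CD1 basal libraries and so made up most of the adipocyte sum. Car3, a carbonic anhydrase abundant in fat, differed by 5.29 and 5.00. Plin4, a lipid droplet coat protein, was at 57 and 89 in luminal and 266 and 639 in basal libraries of CD1 mice, and 81 and 122 in luminal and 279 and 179 in basal libraries of DNp63 mice. It had the smallest adipocyte differences, 2.40 (adjusted p = 0.00277) and 1.13 (adjusted p = 0.0643), and the latter was called when any 1 CD1 library was left out (0.0337 to 0.0456). Adipoq, the fat hormone adiponectin, had 3 reads over both CD1 luminal and 48 over both CD1 basal libraries, a ratio of 18.8 (6.07 to 94.5), and its fitted CD1 difference of 2.65 was 1.68 without CD1 basal replicate 2. Plin1, the main perilipin of adipocytes, had 1 and 38 reads, a ratio of 44.7 (7.56 to 1813). Cidec, a droplet fusion protein, had 1 and 110 reads in CD1 mice, and its DNp63 call was lost without DNp63 basal replicate 1 (adjusted p = 0.056).

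**Figure D3:**
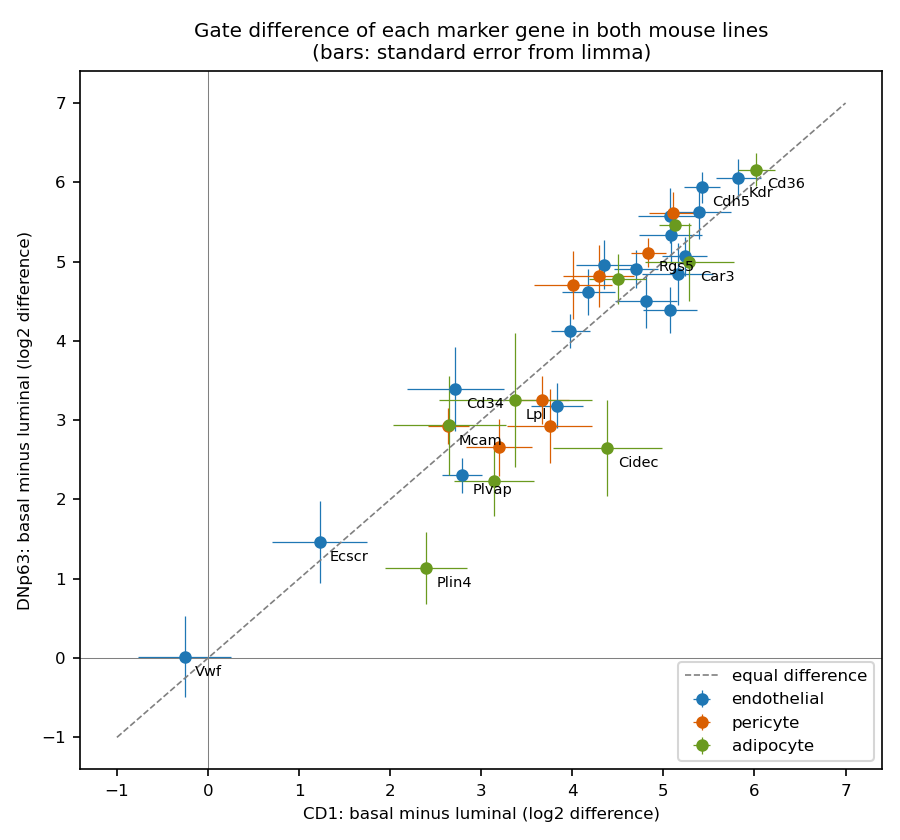
Basal minus luminal log2 difference in CD1 (x axis) and DNp63 mice (y axis) for each of the 35 genes, with limma standard errors; the dashed line marks equal differences. Most genes lie near the line, Vwf sits near 0 on both axes, and Plin4 and Cidec lie below the line.

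The gate differences of the 2 lines, which share no library, are set side by side in the plot of both lines. Over the 35 genes they correlated at r = 0.926, and over all genes tested at 0.899, a description across genes, which are not independent replicates. The interaction, which tests whether the gate difference depends on the line, was called for 0 of the 35 genes by limma or limma voom, with 0 at an unadjusted p under 0.05 (10.5% of all genes), where 0.343% of all genes were called (0.0828% higher, 0.26% lower). The lowest adjusted p was 0.545, for Cidec (-1.74, 95% interval -3.68 to 0.21).

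Other genes of the same cell types gave more mixed counts. In the CD1 gate comparison, 24.2% of all genes tested were called higher and 20.1% lower, and the list counts are read beside these shares. Of 29 further endothelial genes, 24 were called higher and 1, Podxl, which epithelium also expresses, lower. The largest were Gpihbp1, which anchors lipoprotein lipase to capillaries (6.27), and Robo4, a guidance receptor of vessels (6.07). Of 18 further pericyte genes, 12 were called higher and 2 lower, led by Gucy1a3 (4.85) and Gucy1b3 (4.80), the subunits of the nitric oxide receptor. Of 24 further adipocyte genes, 12 were called higher and 7 lower, with differences down to -1.79. The highest were Aqp7, a glycerol channel (5.68), and Slc2a4, the insulin-regulated glucose transporter (5.50). Scd1 went the other way, at 12623 and 12692 in CD1 luminal and 3828 and 4691 in CD1 basal libraries. Summed over the 25 genes of that list in the table, basal libraries held 0.85 times the luminal value in CD1 and 0.869 times in DNp63 mice. Of 13 vascular ligands, 9 were called higher and 1 lower. Dll4, the Notch ligand of endothelial tip cells, differed by 4.63, Pgf by 3.95, and Pdgfb, the endothelial ligand of Pdgfrb, by 1.62. Angpt1, the ligand of TIE2, was at 383 and 719 in CD1 luminal and 133 and 228 in CD1 basal libraries and fell by 1.56 (adjusted p = 0.00824). In DNp63 mice it was at 123 and 153 in luminal and 123 and 150 in basal libraries, a difference of 0.01 (adjusted p = 0.978).

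Of 7 lymphatic markers 4 were called higher and 1, the lymphatic regulator Prox1, lower. The leading ones were Reln (6.21), a secreted glycoprotein, and Pdpn (4.96), podoplanin, which basal epithelium also carries. Of 6 Schwann cell genes tested, 5 were called higher and 1, Mbp (-1.81), lower. Cdh19, a cadherin of the glial lineage, was higher by 3.79. Of 9 immune genes 2 were called higher, Cd79a (2.01) and Cd68 (1.69), where 24.2% of all genes tested were called higher. Cd79a was at 8 and 8 in CD1 luminal and 37 and 84 in CD1 basal libraries. The immune sum was 910 to 930 in CD1 luminal and 1539 to 2011 in CD1 basal libraries. Of the red cell genes, 1 was tested and none called. Of 16 fibroblast genes none was called in CD1 by limma, with 1 at an unadjusted p under 0.05 (51.9% of all genes). In DNp63 mice 6 of the 16 were called higher, where 24.9% of all genes tested were. The fibroblast sum was 19208 and 55629 in luminal and 23817 and 57243 in basal libraries of CD1 mice, and 29824 and 26577 in luminal and 83512 and 107558 in basal libraries of DNp63 mice. Of the genes of the sort antigens, Itgb1, which encodes CD29, was higher (0.69) and Cd24a lower (-1.49) in the CD1 basal gate. Ptprc (CD45) was at 30 to 165 in all libraries. Pdgfra, which encodes CD140a, was at 196 and 1049 in luminal and 344 and 1018 in basal libraries of CD1 mice (0.36, adjusted p = 0.725). In DNp63 mice it was at 397 and 251 in luminal and 1741 and 2978 in basal libraries and was called higher (2.85, adjusted p = 0.0122), though every gate was set to CD140a-. The part of any of these lists in the marker differences was not tested.

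The lines were compared within each gate. Of the 35 genes, 0 were called in DNp63 basal against CD1 basal libraries by limma or by limma voom on recovered reads, with 3 at an unadjusted p under 0.05 (11.2% of all genes), where 0.716% of all genes were called (0.195% higher, 0.521% lower). The differences were below 0 for 32 of 35, with medians of -0.30, -0.22 and -0.49 for endothelial, pericyte and adipocyte genes against -0.04 for all genes. The share of all genes below 0 is not given, and the 35 genes are not independent replicates. The sums in DNp63 basal were 0.826, 0.896 and 0.764 times those in CD1 basal libraries, and the lower DNp63 value was in replicate 2 in each set. The pericyte sums of the 2 groups overlapped; the endothelial and adipocyte sums did not, though DNp63 basal replicate 1 lay close below the lower CD1 basal library in both. The adipocyte median moved to -1.09 without CD1 basal replicate 1 and to -0.15 without CD1 basal replicate 2. Cdh5 differed by -0.22 (95% interval -0.66 to 0.23), Rgs5 by -0.31 (-0.74 to 0.12) and Fabp4 by -0.28 (-0.69 to 0.13).

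Plvap and Car3 are given because they stood out once their values had been seen. Plvap, the diaphragm protein of fenestrated and venular endothelium, reached 3219 and 1905 in the basal libraries of CD1 mice against 1079 and 1103 in those of DNp63 mice, and these did not overlap. The difference was -1.19 (-1.69 to -0.70; adjusted p = 0.0578), and it was called without CD1 basal replicate 2 (adjusted p = 0.0376), with a pseudocount of 32 (0.0477) and with a replicate block shared by all groups (0.0415). Car3 was at 1401 and 3102 against 852 and 566, a difference of -1.59 (-2.70 to -0.48; adjusted p = 0.247).

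**Figure D4:**
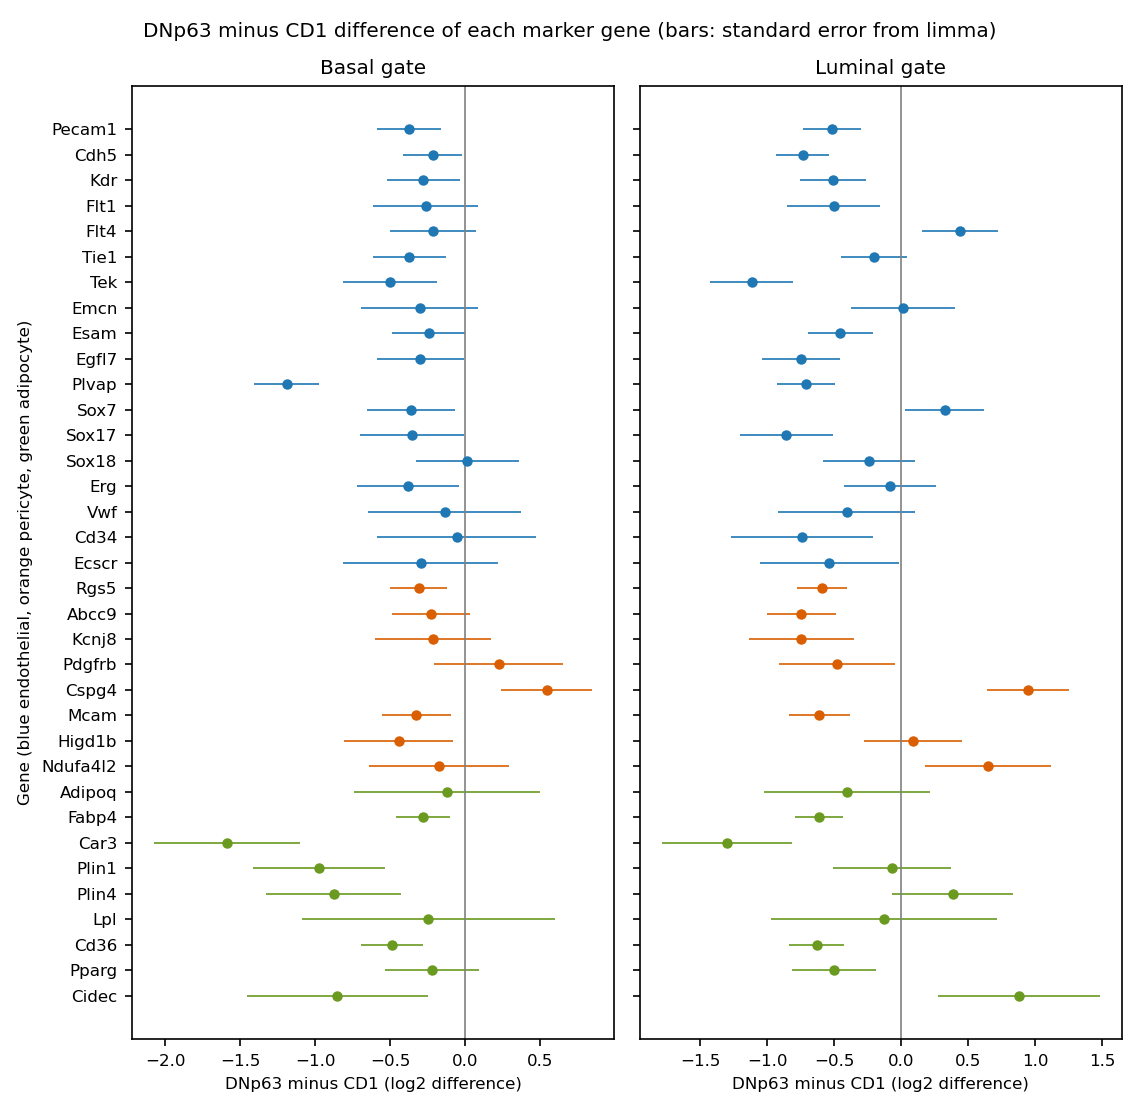
DNp63 minus CD1 log2 difference of each gene in the basal (left) and luminal (right) gate, with limma standard errors; colours mark cell types. Most points lie left of 0 in both panels, with Car3 farthest left in each, and none was called by limma with all libraries and a pseudocount of 8.

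In the luminal gate, 0 of the 35 genes were called by limma or limma voom between the lines, with 13 at an unadjusted p under 0.05 (17.2% of all genes), where 4.43% of all genes were called (2.65% higher, 1.78% lower). The differences were below 0 for 27 of 35, with medians of -0.51, -0.53 and -0.41 against 0.01 for all genes. Here too the share of all genes below 0 is not given, and the 35 genes are not independent replicates. The pericyte median moved to -0.15 without CD1 luminal replicate 2, and the adipocyte median to -0.01 without DNp63 luminal replicate 2. The lowest adjusted p was 0.0814, for Cdh5 at -0.73 (95% interval -1.18 to -0.29), which was called with a replicate block shared by all groups (adjusted p = 0.0325). Rgs5 differed by -0.59 (-1.02 to -0.16) and Fabp4 by -0.61 (-1.02 to -0.21). For these 3 genes both DNp63 luminal values lay below both CD1 luminal values. The share of all genes lying apart in this way is not given, and the main fit called none of the 3. The number of marker genes called lower in this comparison changed when single libraries were left out, as given in the closing section.

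Among the marker genes, the 2 CD1 basal libraries differed most upward, from replicate 1 to replicate 2, for the genes more typical of fat cells. This was seen after the values were known and was not tested, and no share of all genes with such ratios is given. The ratio of replicate 2 to replicate 1 was 1.67 to 4.32 for the 5 genes more typical of fat cells and at most 1.26 for Fabp4, Cd36, Lpl and Pparg. It was 1.07 to 1.60 for the pericyte genes. Among endothelial genes it was 0.304 for Vwf and 0.592 for Plvap and 0.673 to 1.22 for the other 16. In DNp63 basal libraries the ratio was 0.48 to 1.15 for the adipocyte genes and below 1 for all endothelial genes but Vwf and Plvap. Some of the CD1 fat cell ratios rest on few reads: Adipoq had 8 and 40, Plin1 13 and 25, and Cidec 24 and 86. Of 25 further adipocyte genes, 17 were higher and 8 lower in CD1 basal replicate 2. Of 29 further endothelial genes, 18 were higher and 11 lower, so these counts did not set the 2 types apart.

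**Figure D5:**
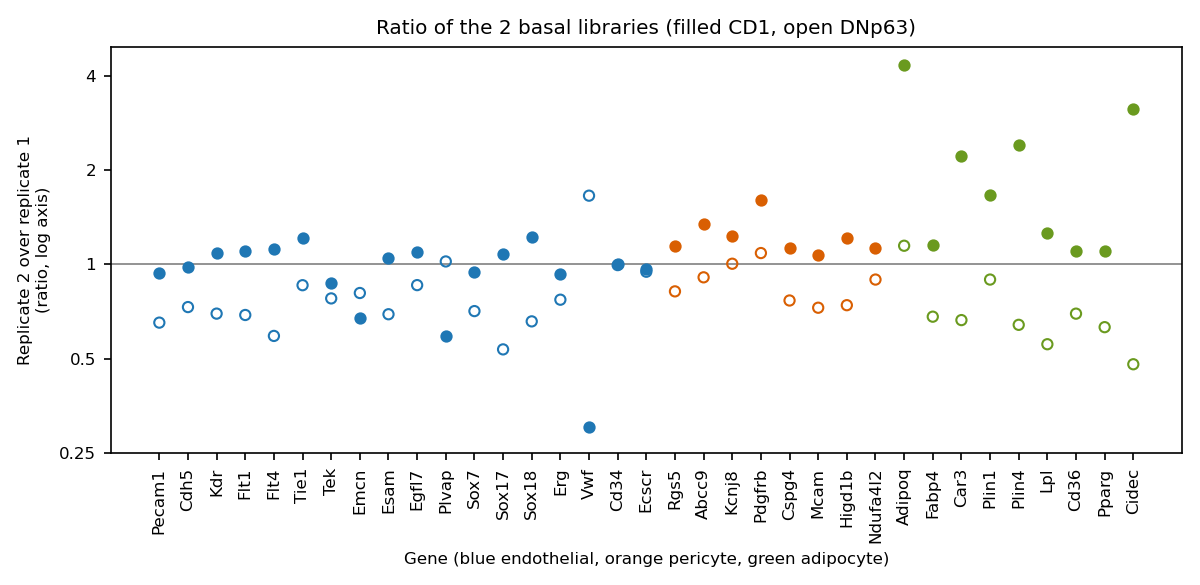
Ratio of replicate 2 to replicate 1 (log axis) for each gene in the basal libraries, filled for CD1 and open for DNp63. In CD1 the fat cell genes reach 4.32 and Vwf falls to 0.304, while Cdh5 is at 0.978.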

How the data were processed

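RNA from sorted cells was made into libraries with the Ovation Solo RNA-Seq System and sequenced on an Illumina NovaSeq instrument, per the labels' protocols. The submitters' processing notes name STAR, HTSeq and the builds GRCm38 and mm10. No label or header read here states their versions or how strand was handled. The authors deposited 1 table of scores, read as counts per 20000000 reads rounded up to whole numbers from the label of the values and from column sums near 20000000. Such values rise in even steps, and 99.8% to 99.9% of them came out as whole reads (equal, with no tolerance, to a whole number of steps rounded up), against 20.7% to 36.0% by chance, which gave the depth per library. Gene positions and exon lengths are from GENCODE M21. Exon lengths merge the exons of all annotated transcripts of a gene, so levels and orders per kilobase depend on that choice.

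Values were scaled by TMM factors over all genes of the table, and log2(value + 8) was fitted with limma 3.58.1 in R 4.3.3 (4 group means, all 8 libraries, trend, two-sided, Benjamini-Hochberg over all 16900 genes that reached 40 in 2 or more libraries), for 5 comparisons. The fit has 4 residual and 4.69 prior degrees of freedom. TMM factors over the tested genes only were also computed after the data had been seen, and both versions are given in the closing section. Intervals are 95%; those of read ratios are exact and cover counting error only, since the reads carry no molecular identifiers here. The marker genes and lists were chosen with earlier results of these data known. Genes given with every library are the markers Cdh5, Rgs5 and Fabp4 and, per cell type, the 4 with the highest mean and those with the largest and smallest CD1 gate difference; of other lists, the 2 called genes with the largest difference. A gene that this rule names in the Schwann cell list is not reported here. Ecscr, Plvap, Car3 and the split of the adipocyte genes were singled out after their values were seen.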

Additional observations from a re-analysis of the deposited data

How the results depend on the processing

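The counts of marker genes called were recomputed under 20 settings for the CD1 gate, 19 for the DNp63 gate and 18 for the other comparisons, of which 8 leave out 1 library each; the setting with TMM factors over the tested genes only was chosen after seeing the data. Over these settings 30 to 34 marker genes were called higher and 0 lower in the basal gate of CD1 mice, and likewise in DNp63 mice. The 2 versions of TMM scaling called 7494 and 7492, 8323 and 8113, 121 and 110, 749 and 737, and 58 and 48 genes (all genes first, tested genes second; CD1 gate, DNp63 gate, basal lines, luminal lines, interaction) and the same numbers of marker genes, and moved the endothelial DNp63 gate median from 4.73 to 4.80. Median of ratios scaling gave 4.78 for that median. With values as deposited, Vwf in the DNp63 gate turned from 0.02 to -0.01. With limma voom on recovered reads the pericyte CD1 gate median was 4.49, the endothelial and adipocyte DNp63 gate medians 5.00 and 4.34, and 65 genes were called between basal lines and 22 for the interaction. A pseudocount of 2 gave 4.40, 4.92 and 4.23 for the same medians. A pseudocount of 32 gave CD1 gate medians of 4.14 (endothelial), 3.22 (pericyte) and 3.28 (adipocyte), DNp63 gate medians of 4.17 and 3.21 (endothelial, pericyte), an endothelial luminal median of -0.44, 116 interaction calls and 1 marker gene lower between basal lines (Plvap, adjusted p = 0.0477). A filter of at least 1 called 25, 422 and 5 genes (basal lines, luminal lines, interaction). A filter of at least 100 gave pericyte and adipocyte DNp63 gate medians of 4.71 and 4.78 over fewer marker genes. Fitting only the 2 groups compared called 40 genes between luminal lines. Without Fabp4, Cd36, Lpl and Pparg, the adipocyte medians were 3.14 and 2.65 (gates), -0.88 (basal lines) and -0.91 (interaction).

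The labels do not say that replicate numbers mark a shared animal. Deviations of same-numbered libraries correlated at 0.341 within CD1 and 0.267 within DNp63 mice, and at -0.014 to 0.04 across lines. A replicate block shared by all groups called 203 genes between basal lines, 128 for the interaction, 1 marker gene lower between basal lines (Plvap, adjusted p = 0.0415) and 1 between luminal lines (Cdh5, 0.0325), and Plin4 in the DNp63 gate (0.0475). A replicate block nested in mouse line called 502 genes for the interaction, and also Ecscr in the CD1 gate (0.0232) and Plin4 in the DNp63 gate (0.0155).

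Leaving out each library in turn, the genes called ranged from 5418 to 7113 (CD1 gate), 5891 to 8768 (DNp63 gate), 3 (without CD1 basal replicate 1) to 191 (without CD1 luminal replicate 2) between basal lines, 191 (without DNp63 luminal replicate 2) to 992 (without CD1 luminal replicate 1) between luminal lines, and 4 (without CD1 basal replicate 1) to 162 (without CD1 luminal replicate 1) for the interaction. Endothelial medians ranged over 4.73 to 4.81 and 4.53 to 4.86 (gates), -0.52 to -0.10 (basal lines), -0.52 to -0.43 (luminal lines) and -0.034 to 0.46 (interaction). Pericyte medians ranged over 3.42 to 4.53 and 3.73 to 4.05, -0.40 to -0.06, -0.53 to -0.15 and 0.08 to 0.46 in that order. Adipocyte medians ranged over 3.58 to 4.90 and 3.03 to 3.67, -1.09 to -0.15, -0.61 to -0.01 and -0.69 to 0.24. Marker genes called lower numbered 0 to 1 between basal lines (Plvap) and 0 to 4 between luminal lines. Marker genes called higher in the gates numbered 32 to 34 in CD1 and 30 to 34 in DNp63 mice. Cdh5 between basal lines ranged over -0.44 to 0.0044, and Vwf over -1.08 (without CD1 basal replicate 1) to 0.58 (without CD1 basal replicate 2) in the CD1 gate and -0.35 to 0.38 in the DNp63 gate (without DNp63 basal replicate 2 and 1). Where the cause of such a change is not plain from fewer libraries or genes, the cause was not tested. An arm left with 1 library is assumed to vary like the other groups.
Genes at 1 to 3 reads per group are limited by depth, and their fitted differences depend on the pseudocount.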

Other observations

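Selp, Sele and Ackr1, venule genes outside the 35, were read in the CD1 basal libraries after the Vwf and Plvap values had been seen, with no test. Of 29 further endothelial genes, 18 were higher and 11 lower in replicate 2 than in replicate 1. The genes that follow were picked from the lower ones. Aplnr, of the same list, was level at 2065 and 2068. Nr2f2, of the lymphatic list, was at 1282 in replicate 1 and 1713 in replicate 2. Selp, the adhesion receptor P-selectin of inflamed venules, was at 3997 in replicate 1 and 951 in replicate 2. Sele (E-selectin) was at 1649 and 519, and Ackr1, a chemokine-binding receptor of venules, at 861 and 216. Cdh5 was at 15016 and 14684 in the same libraries. In DNp63 basal libraries Selp was at 797 and 716, Sele at 489 and 474 and Ackr1 at 194 and 83, below both CD1 basal values in each case, and none was called between the lines (adjusted p = 0.348, 0.457 and 0.342 by limma). Selp was called higher in the basal gate of both lines, by 2.15 in CD1 and 2.12 in DNp63 mice.

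Of 25 further adipocyte genes, 17 were higher and 8 lower in CD1 basal replicate 2 than in replicate 1. Among the higher, picked after their values were seen, were Cfd, the protease adipsin, at 275 in replicate 1 and 787 in replicate 2, the hormone gene Retn at 23 and 112, and Lep, which encodes leptin, at 60 and 108. Among the lower were Ucp1, the uncoupling protein of brown fat, at 120 and 92, and Gpd1, a glycerol phosphate dehydrogenase, at 216 and 180. Lep was at 0 in all 4 luminal libraries. The fibroblast sum was also higher in replicate 2, at 57243 against 23817, and the part of fat pad tissue in these values was not tested.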
